A study of Homo sapiens with 24 samples.

Results

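Cytosolic ribosomal protein genes were followed in human acute myeloid leukaemia cells treated with decitabine (DAC), a cytidine analogue that is built into DNA and traps DNA methyltransferases. Members were the protein-coding genes whose symbol is RPL or RPS followed by a number, together with RPLP0, RPLP1, RPLP2 and RPSA, and without the RPS6K kinases. This rule gave 90 of the 52994 genes in the tables. Of these, 43 encode core proteins of the large subunit, 3 the P stalk of the large subunit and 31 core proteins of the small subunit. The other members were 9 paralogs, 3 read-through genes that join a ribosomal protein gene to its neighbour, and RPS19BP1, which encodes a protein that binds RPS19 and is not a subunit.

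A ribosome carries about equal numbers of its proteins, and cells make them together with ribosomal RNA. Most messenger RNAs of ribosomal proteins begin with a C followed by a run of pyrimidines, the 5′ terminal oligopyrimidine (TOP) tract, through which mTOR signalling and LARP1 control their translation and stability. In blood formation these genes are best known from Diamond-Blackfan anaemia and the 5q- syndrome, in which loss of 1 copy of a ribosomal protein gene limits red cell production. Ribosomal proteins that are not built into a ribosome, RPL5 and RPL11 among them, bind MDM2 and so act on p53.

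The 24 libraries are stranded total RNA sequencing after removal of ribosomal RNA. They come from 2 cell lines, UCSD-AML1 and ELF-153, both grown in RPMI with fetal calf serum and GM-CSF. In each line the groups were cells given 100 nM DAC with daily renewal and harvested at 96 h, untreated cells at 96 h, treated cells at 144 h and untreated cells at 144 h. Each of the 8 groups held 3 libraries that the labels call technical triplicates, so the tests weigh differences against technical variation alone and say nothing of how separate cultures would vary. In bulk RNA, fewer cells of a kind and less RNA per cell cannot be told apart.

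Depth ran from 13148881 to 28528757 assigned reads per library, and members took 0.259% to 0.912% of those outside mitochondrial ribosomal RNA. Between 13.1% and 63.8% of a library was mitochondrial ribosomal RNA, whose range with DAC lay above that without DAC in 3 of the 4 comparisons. In those 3 this share and the treatment cannot be told apart, so a call that ends with the share as a covariate does not show which of them it follows. The share was 62.9 ± 1.07% in treated and 50.1 ± 1.08% in untreated UCSD-AML1 at 96 h, and 51.2 ± 10.8% and 49.4 ± 4.25% at 144 h (SD, n = 3 each). In ELF-153 it was 43.4 ± 6.25% in treated and 25.2 ± 11.1% in untreated cells at 96 h, and 47.0 ± 5.79% and 24.3 ± 12.1% at 144 h. Of the myeloid and progenitor markers, PTPRC (group means 169 to 468 scaled reads), CD33 (70.6 to 507), CD34 (118 to 338), SPI1 (119 to 257) and GATA2 (1152 to 2953) were present in all 8 groups, and MPO was not above 0.614. MS4A1 and EPCAM, markers of B cells and epithelium, were at 0 in all groups. Among further markers of other cells, COL1A1, COL3A1, CD3E, KRT5, ALB and SOX10 had no group mean above 39, KRT18 ran from 40.6 to 158 and CDH5, an endothelial gene, from 0.305 to 3073. With DAC, CDH5 rose in UCSD-AML1 (1.49 at 96 h and 1.25 at 144 h), while KRT18 fell in ELF-153 at 144 h (-0.94). COL1A1 stood higher in treated UCSD-AML1 at 144 h (3.56) and COL3A1 in treated ELF-153 (3.97 and 3.59). Their untreated means there were at most 2.51, and at 144 h both passed the filter for testing only through those treated groups. Their values are therefore a description, and no test of theirs is used. Of 9 myeloid and progenitor markers tested, 4 fell in UCSD-AML1 at 96 h (44.4%) and 6 at 144 h (66.7%). At each harvest 1 rose. In ELF-153 2 fell and 2 rose at each harvest (22.2% each). Falls over all genes were 20.1%, 26.8%, 12.9% and 18.2% in the same order. CD33 and CD34 fell in UCSD-AML1 at 144 h (-1.57 and -1.02). In ELF-153 they fell at 96 h (-1.15 and -0.85) and 144 h (-1.71 and -1.52). Other markers of the list rose. RUNX1 did so in UCSD-AML1 at 144 h (1.34), and in ELF-153 LMO2 at both harvests (1.69 and 1.35) and PTPRC at 96 h (0.70). MECOM rose in ELF-153 at 144 h (3.43), from a mean of 0.242 to 12 scaled reads. The part of these markers in the results was not tested.

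A scaled read is 1 read of a gene after division by the size factor of its library, as deposited, summed over the transcripts of the gene. The 96 h and 144 h tables were scaled apart, so levels are compared only within a table. Reads appear to have been counted only where they belong to a single transcript, and levels therefore do not compare between genes. RPS18, a core protein of the small subunit, was listed at 0 in all 24 libraries, as were the read-throughs RPL17-C18orf32 and RPL36A-HNRNPH2. RPL39L, a paralog of RPL39, held 1 read in all, and a Y-linked paralog is not described. Genes at 10 or more scaled reads in at least 3 libraries were tested, which left 84 members of 17609 genes at 96 h and 83 of 17180 at 144 h, with 75 core members at each harvest. RPL10L and RPL3L passed this filter only through the groups in which they were high, so their values are a description and no test of theirs is used. They remain among the members counted as rising or as having a higher line difference. A log2 change is DAC minus untreated on the scale log2(scaled reads + 1), given with its standard error, and a member is said to rise or fall where limma's p-value, adjusted over all genes tested, was below 0.05.

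The transcription starts of a few members, read from RefSeq promoters on GRCh38.p14, show the TOP tract and its absence. They are the members on which the results turn and the X-linked RPL10 beside its autosomal retrogene RPL10L. Each run has 20 bases before the start, and capitals mark the tract, or the start base alone where there is no tract of C and at least 4 further pyrimidines.
RPSA (chr3:39406700-39406739, plus strand): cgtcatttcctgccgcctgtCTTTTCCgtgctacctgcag
RPS7 (chr2:3575240-3575279, plus strand): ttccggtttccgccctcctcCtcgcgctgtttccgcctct
RPS6 (chr9:19380217-19380256, minus strand): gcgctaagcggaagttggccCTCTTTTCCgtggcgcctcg
RPL22 (chr1:6199576-6199615, minus strand): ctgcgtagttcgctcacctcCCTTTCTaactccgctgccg
RPL29 (chr3:51995876-51995915, minus strand): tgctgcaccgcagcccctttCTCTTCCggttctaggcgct
RPS21 (chr20:62387083-62387122, plus strand): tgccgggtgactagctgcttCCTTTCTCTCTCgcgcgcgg
RPS27 (chr1:153990742-153990781, plus strand): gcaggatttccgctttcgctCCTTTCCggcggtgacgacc
RPL10 (chrX:154398357-154398396, plus strand): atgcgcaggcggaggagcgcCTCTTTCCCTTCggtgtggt
RPL10L (chr14:46651762-46651801, minus strand): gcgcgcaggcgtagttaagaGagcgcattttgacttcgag

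Of the 62 core members with a RefSeq promoter, 46 (74.2%) had such a tract at the annotated start, against 2 of 8 paralogs (25%) and 1404 of 27305 genes (5.14%). In the 300 bases around the start, CCGGAA, the core of the ETS site, stood on either strand in 35 of 62 core members (56.5%) and in 20.1% of all genes. The E-box CACGTG stood in 4 core members (6.45%) and in 8.77% of all genes. Core members held a median of 25 CpG dinucleotides in this window, against 16 over all genes. The median log2 change with DAC of members with and without the tract was -0.67 and -0.52 in UCSD-AML1 at 96 h, -0.51 and -0.45 at 144 h, -0.01 and 0.07 in ELF-153 at 96 h, and -0.16 and -0.38 at 144 h (46 and 21 members). These 46 and 21 members are not the core set above, since members outside the core are among them.

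In UCSD-AML1 at 96 h, ribosomal protein genes of both subunits fell with DAC. Of 84 tested members 45 fell (53.6%), against 20.1% of all genes tested, and 4 rose, against 20.0%. Among core members 27 of 43 of the large subunit, 2 of 3 of the P stalk and 13 of 29 of the small subunit fell, and RPS27 alone rose. The median log2 change was -0.57 over the members and -0.03 over all genes. Summed over members, treated libraries held 63782 ± 6400 scaled reads and untreated libraries 88532 ± 4954 (SD, n = 3 each), a ratio of 0.72, and the 2 sets of libraries did not overlap. Leaving out treated replicate 1 or untreated replicate 2 lowered the count of falling members to 29.

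RPSA, a small-subunit protein also known as the laminin receptor, had the largest fall among called members. It held 270.5, 303 and 413 scaled reads in treated libraries, against 1035, 1170 and 833 in untreated libraries. All treated libraries lay below all untreated ones, and the change was -1.63 ± 0.23 (limma adjusted p = 8.5e-05). Next came RPL7 with -1.43, RPS3A with -1.34 and the P-stalk gene RPLP1 with -1.28. RPLP0, the base of the P stalk that draws translation factors to the ribosome, held 574, 664 and 626 in treated and 1450, 1449 and 1396 in untreated libraries (-1.20 ± 0.16, limma adjusted p = 4.7e-05). RPLP2, the third P-stalk gene, held 231, 289 and 205 in treated and 374, 362 and 363 in untreated libraries and did not pass the test (-0.61 ± 0.23, limma adjusted p = 0.051).

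RPL22, a large-subunit protein with a role in lymphoid development, held 2277, 2680 and 3600 scaled reads in treated libraries, against 7064, 6439 and 5908 in untreated libraries (-1.20 ± 0.19, limma adjusted p = 0.00023). RPS6, the small-subunit protein phosphorylated by S6 kinase, held 504, 441 and 436 in treated and 1206, 1001 and 891 in untreated libraries (-1.16 ± 0.19, limma adjusted p = 0.00033). RPL29 held 537, 650 and 554 in treated and 1412, 1263 and 1278 in untreated libraries (-1.19 ± 0.15, limma adjusted p = 4.7e-05). For each of these large- and small-subunit genes every treated library was below every untreated one. RPS27, a zinc-finger protein of the small subunit, was the exception, at 372, 563 and 463 in treated and 297, 221 and 231 in untreated libraries (0.89 ± 0.22, limma adjusted p = 0.0049). All of the 96 h reads of RPS27 lay on retained-intron transcripts.

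Genes of Diamond-Blackfan anaemia and the 5q- syndrome formed a list of 22 tested members, of which 9 fell (40.9%) and 1, RPS27, rose in UCSD-AML1 at 96 h. That share lay between those of all members (53.6%) and of all genes (20.1%). RPS19, the gene most often mutated in that anaemia, held 2066, 2656 and 2162 scaled reads in treated and 2964, 3038 and 2660 in untreated libraries, and did not pass the test (-0.34 ± 0.16, limma adjusted p = 0.099). RPS14, in the deleted region of the 5q- syndrome, held 978, 1103 and 971 in treated and 1256, 1417 and 1313 in untreated libraries (-0.39 ± 0.16, limma adjusted p = 0.071). RPL11 held 2144, 3784 and 3185 in treated and 4386, 4372 and 4024 in untreated libraries (-0.53 ± 0.22, limma adjusted p = 0.075). In each of these genes the treated libraries lay below the untreated ones, in RPS19 by a narrow margin (2656 against 2660).

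**Figure D1:**
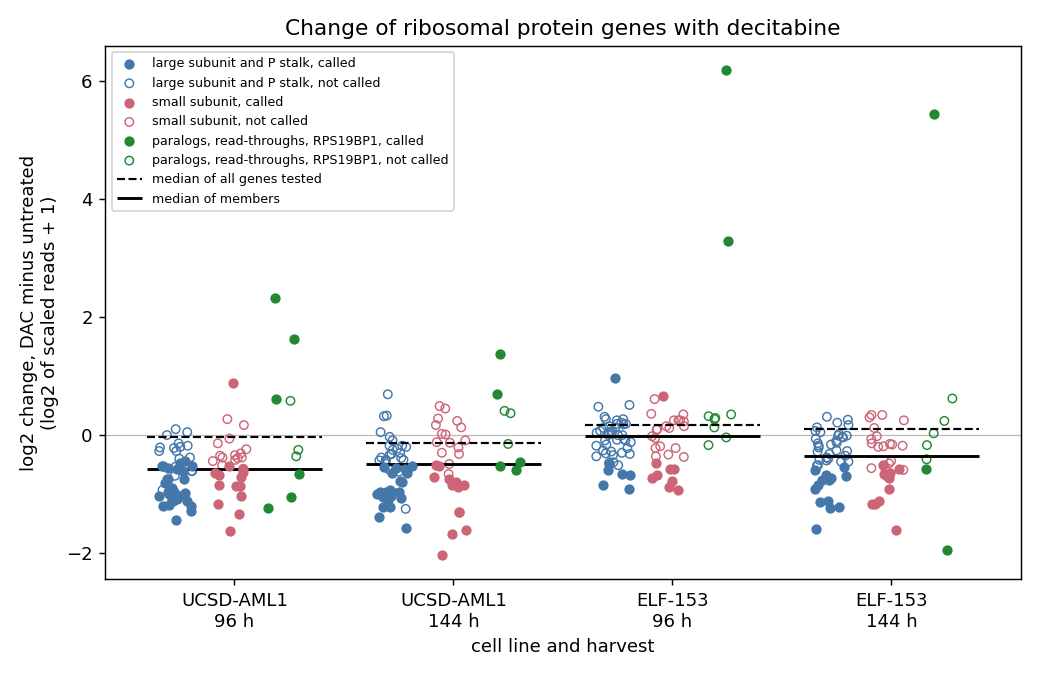
Log2 change with DAC of each tested member (points, one per gene) by cell line and harvest. Filled points passed the test, thick lines are the median of the members and dashed lines the median of all genes tested. The member medians were -0.57 and -0.49 in UCSD-AML1 and -0.01 and -0.35 in ELF-153 at 96 and 144 h, below the all-gene medians of -0.03, -0.14, 0.17 and 0.11.

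At 144 h in UCSD-AML1, 38 of 83 members fell (45.8%), against 26.8% of all genes, and 2 rose, against 20.1%. The members' median log2 change was -0.49 and that of all genes -0.14. Of the large subunit 20 of 43 fell, of the P stalk 2 of 3 and of the small subunit 13 of 29, while 13 of the 22 anaemia and 5q genes fell (59.1%). The member sum was 46664 ± 1764 scaled reads in treated and 70313 ± 5012 in untreated libraries (SD, n = 3 each), a ratio of 0.664. With TMM scaling, which shifted the median of all genes by 0.26, the split was 7 higher and 18 lower, and the member median stayed 0.31 below that of all genes.

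RPS7, a small-subunit protein that also binds MDM2, held 143, 145 and 88.9 scaled reads in treated libraries at 144 h, against 653, 523 and 378 in untreated libraries. The change was -2.03 ± 0.30 (limma adjusted p = 0.00017). At 96 h RPS7 held 317, 314 and 401 in treated and 619, 884 and 621 in untreated libraries (-1.03 ± 0.24, limma adjusted p = 0.0035). The difference between harvests was not tested. RPSA held 159, 135 and 133 in treated and 523, 475 and 322 in untreated libraries at 144 h (-1.60 ± 0.22, limma adjusted p = 1.0e-04). RPL22 held 1778, 1658 and 1477 in treated and 5851, 6401 and 3039 in untreated libraries (-1.57 ± 0.25, limma adjusted p = 0.00031). RPL34 fell by 1.39 and RPS29 by 1.3 on the log2 scale. RPS6, at 334, 302 and 258 in treated and 729, 810 and 667 in untreated libraries, fell by 1.3 ± 0.17 (limma adjusted p = 7.0e-05). In RPS7, RPSA, RPL22 and RPS6 no treated library reached an untreated one at this harvest.

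Between the harvests of UCSD-AML1, which come from separate libraries, 28 members fell at both. They made up 62.2% of the members that fell at 96 h and 73.7% of those that fell at 144 h, none moved in opposite directions, and Pearson's r of the 2 changes was 0.68 across 83 members (0.62 without the far-lying RPL10L), which are not independent replicates. RPS19, RPS14 and RPL11 passed the test at 144 h (-0.51, -0.53 and -0.52), and DESeq2 (-0.29, -0.28 and -0.28), edgeR (-0.22, -0.21 and -0.21) and TMM scaling (-0.21, -0.23 and -0.22) each ended all 3 calls. That of RPS14 was also lost with any 1 of 5 of the 6 libraries left out. RPS4X, the X-linked gene of a small-subunit protein, did not pass the test at either harvest (-0.14 ± 0.19 and -0.32 ± 0.15).

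In ELF-153 at 96 h few members changed. Of 84 members 14 fell (16.7%), against 12.9% of all genes, and 4 rose, against 20.7%, so the share that fell was near the background. The members' median log2 change was -0.01, and 0.17 over all genes. The sum was 36659 ± 1004 scaled reads in treated and 41551 ± 3685 in untreated libraries (SD, n = 3 each), a ratio of 0.882, and the 2 sets overlapped. Leaving out treated replicate 1, 2 or 3 left 9, 7 or 7 falling members, and leaving out untreated replicate 1 or 3 left 8 each. With the mitochondrial ribosomal RNA share as a covariate 3 members fell. That share ran from 13.1% to 35.0% in untreated and from 37.3% to 49.8% in treated libraries here. The share and the treatment therefore cannot be told apart, and whether the share bears on the change was not tested.

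Among the members that fell in ELF-153 at 96 h were RPS2 (-0.93), RPL29 (-0.92), RPS19 (-0.88), RPL35 (-0.85), RPS16 (-0.78), RPS28 (-0.73), and also RPL11, RPS21, RPL5, RPL23A and RPS10. With coding transcripts alone RPS16 changed by 0.30, in the opposite direction, and with the covariate by -0.41, neither passing, and the call of RPS28 was lost with the covariate (-0.91). RPS19 held 1409, 1108 and 1287 scaled reads in treated libraries, against 2495, 2122 and 2367 in untreated libraries (-0.88 ± 0.16, limma adjusted p = 0.00066). RPL29 held 755, 590 and 714 in treated and 1321, 1189 and 1369 in untreated libraries (-0.92 ± 0.15, limma adjusted p = 0.00044). Treated and untreated libraries did not overlap for either gene. RPL41, which encodes the smallest ribosomal protein, was the core large-subunit gene that rose, at 304, 314 and 284 in treated and 87.4, 201 and 205 in untreated libraries (0.97 ± 0.27, limma adjusted p = 0.015), and the covariate ended this call with a change of 0.17. RPS27 rose here too, at 303, 224 and 224 in treated and 128, 168 and 178 in untreated libraries (0.66 ± 0.22, limma adjusted p = 0.029), a call lost without treated or untreated replicate 1 (0.52 each).

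At 144 h in ELF-153, 27 of 83 members fell (32.5%), against 18.2% of all genes, and 1 rose, against 20.8%. Of the large subunit 12 of 43 fell, of the P stalk 2 of 3 and of the small subunit 11 of 29. The members' median was -0.35 and that of all genes 0.11. The sum was 32873 ± 1474 scaled reads in treated and 46405 ± 598 in untreated libraries (SD, n = 3 each), a ratio of 0.708, with no overlap. Without treated replicate 3 the count was 18. RPS21, a small-subunit protein, held 240.4, 297 and 349 in treated and 775, 994 and 931 in untreated libraries (-1.61 ± 0.23, limma adjusted p = 0.00011). RPL29 held 427, 481 and 490 in treated and 1279, 1472 and 1451 in untreated libraries (-1.59 ± 0.14, limma adjusted p = 2.3e-06). The ratio of the fitted means was 0.333 for RPL29, and for neither gene did a treated library come near an untreated one.

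RPL5, which with RPL11 and 5S ribosomal RNA forms the particle that binds MDM2, held 957, 1054 and 1217 scaled reads in treated and 2148, 2552 and 2395 in untreated ELF-153 at 144 h (-1.14 ± 0.14, limma adjusted p = 2.7e-05). RPL11 held 1092, 1131 and 1314 in treated and 2088, 2387 and 2147 in untreated libraries (-0.91 ± 0.13, limma adjusted p = 0.00016). RPS19 held 1184, 1038 and 1227 in treated and 2015, 2840 and 2693 in untreated libraries (-1.12 ± 0.16, limma adjusted p = 9.9e-05). The 3 genes showed the same picture of treated libraries below all untreated ones. Also among the largest falls were RPL35 (-1.24), RPS2 (-1.17) and RPS10 (-1.17). Of the 14 members that fell at 96 h, 13 fell again at 144 h (92.9% of 14 and 48.1% of 27), and r was 0.91 across 83 members (0.74 without RPL10L).

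RPL29, RPL5 and RPS21 fell in all 4 comparisons. For RPL29, whose protein sits at the surface of the large subunit, the changes were -1.19 and -1.22 in UCSD-AML1 and -0.92 and -1.59 in ELF-153 at 96 and 144 h, and each of these calls held under every alternative run. RPL5 changed by -0.53 and -0.97 in UCSD-AML1 and -0.66 and -1.14 in ELF-153. Its 96 h calls were lost with the mitochondrial covariate (-0.26 in UCSD-AML1 and -0.28 in ELF-153). The 96 h call in UCSD-AML1 was also lost with TMM scaling (-0.38), edgeR (-0.37) and DESeq2 (-0.40) and without any 1 of 4 of the 6 libraries. RPS21 changed by -0.65 and -0.84 in UCSD-AML1 and -0.67 and -1.61 in ELF-153, and both of its 96 h calls (limma adjusted p = 0.046 and 0.045) were lost when most single libraries were left out. With the covariate its 96 h change was -0.14 in UCSD-AML1 and 0.05 in ELF-153. Coding transcripts alone and the filter of 1 read also ended both 96 h calls of RPS21. DESeq2 (-0.51), edgeR (-0.49) and TMM scaling (-0.50) ended that in UCSD-AML1, and the 6 libraries of the line (-0.67) that in ELF-153. Its 144 h call in UCSD-AML1 was lost with edgeR (-0.59) and TMM scaling (-0.54). At the other end 19 tested members passed in none of the comparisons, among them RPL3 and RPL10, which reach close to the peptidyl transferase centre, RPL13A, RPL15, RPS12 and RPS20. With coding transcripts alone RPL3 passed in UCSD-AML1 at 96 h (-1.0) and RPL10 at 144 h (0.74).

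**Figure D2:**
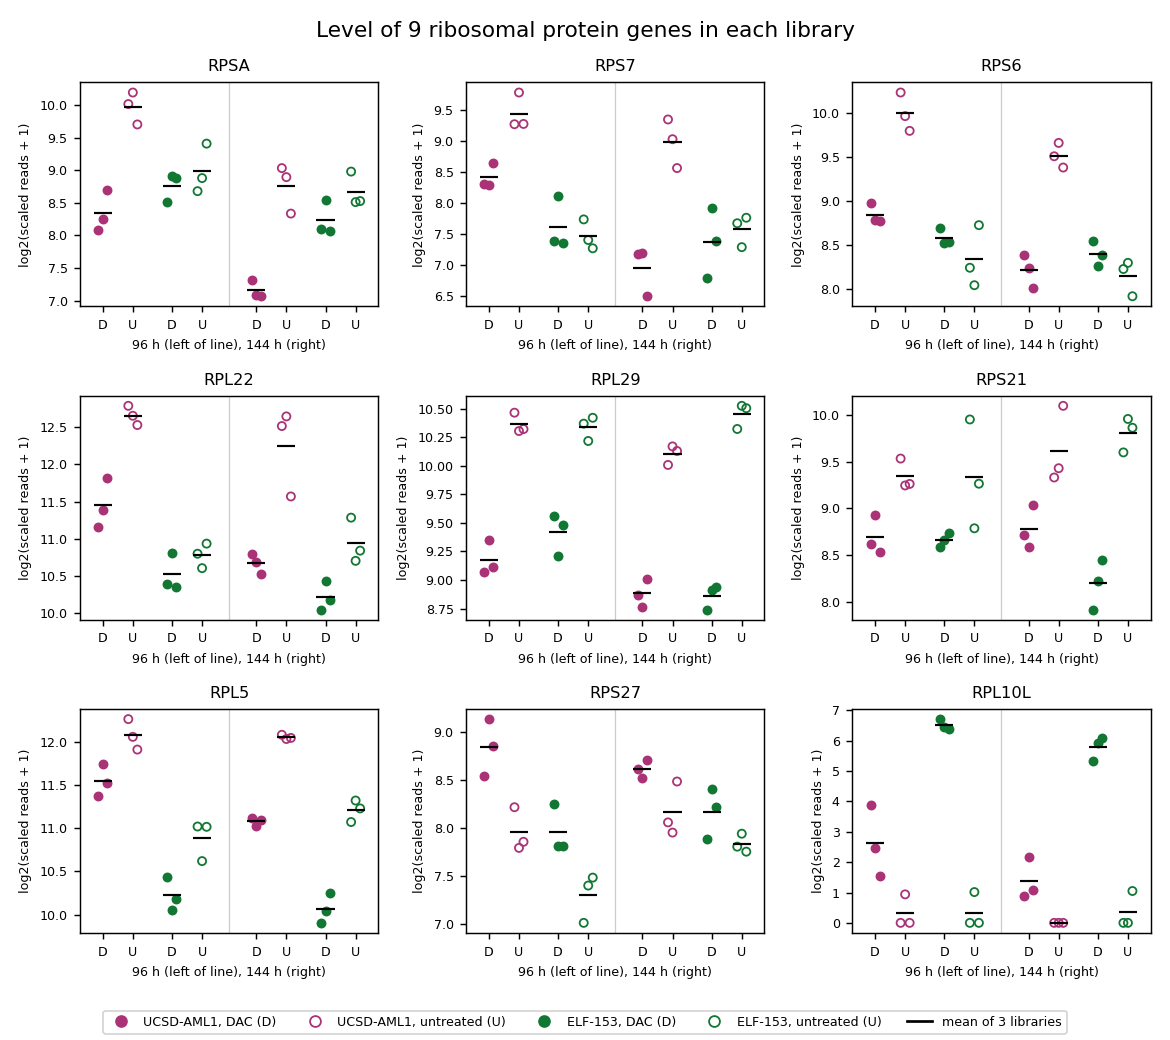
Log2(scaled reads + 1) of 9 members in each library, with DAC (D, filled) left of untreated (U, open) for each line, and 96 h left of 144 h. RPSA, RPS7, RPS6 and RPL22 were lower with DAC in UCSD-AML1, and RPL22 also fell in ELF-153 at 144 h. RPL29 and RPL5 were lower in both lines, and RPL10L was highest in treated ELF-153, at 82.2 to 104 scaled reads at 96 h.

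The interaction of line and treatment asks whether the DAC effect differs between ELF-153 and UCSD-AML1. At 96 h 27 members had a higher change in ELF-153 (32.1%), against 17.1% of all genes, and none had a lower one, against 8.71%. The count of lower ones was 3 with TMM scaling, edgeR or DESeq2, where 19, 16 and 19 were higher. The median difference was 0.51 over members and 0.19 over all genes. RPSA differed by 1.41 ± 0.32 (limma adjusted p = 0.0075), with 363, 480 and 471 scaled reads in treated and 409, 470 and 679 in untreated ELF-153. RPS6 differed by 1.40 ± 0.27 (limma adjusted p = 0.0029), with 413, 368 and 370 scaled reads in treated and 302, 263 and 423 in untreated ELF-153. In ELF-153 both genes overlapped between treated and untreated libraries, while in UCSD-AML1 they did not. The RPSA call was lost with coding transcripts alone (0.97). The largest differences of core members were those of RPL41 (1.71), RPL36A (1.61) and RPL9 (1.44). Leaving out replicate 1 of either treated or untreated UCSD-AML1 left 17 members.

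At 144 h 7 members had a higher change in ELF-153, against 19.9% of all genes, and 3 a lower one, against 10.1%, so both shares (8.43% and 3.61%) lay below the background. With TMM scaling, which shifted the median of all genes by -0.31, the split was 6 higher and 15 lower, and the members' median difference was -0.22 in place of 0.11. RPS7 (1.83 ± 0.43, limma adjusted p = 0.0094), RPS6 (1.55 ± 0.25, limma adjusted p = 0.00089), RPL34 (1.29), RPSA (1.16) and RPS29 (1.10) were the core members with the largest difference. RPS6 held 373, 306 and 334 scaled reads in treated and 299, 314 and 241 in untreated ELF-153 at 144 h. These libraries overlapped and RPS6 did not pass in ELF-153 at either harvest (0.25 each), and its line difference held at both harvests when only coding transcripts were summed (1.38 and 1.57). For RPSA and RPS7 at 144 h that sum gave 0.34 and 1.11, and neither passed. With coding transcripts alone RPSA also fell in ELF-153 at 144 h (-0.80), which its gene sum did not. The mitochondrial covariate ended the 144 h calls of RPS7 (1.16), RPL34 (0.70) and RPSA (0.68).

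On the other side RPL26L1 (-2.35), RPS16 (-1.16) and RPS19BP1 (-0.87) had a lower change in ELF-153, and the call of RPL26L1 was lost without any 1 of 8 of the 12 libraries and with the covariate (-1.23). That of RPS19BP1 was lost with coding transcripts alone (-1.0) and with the covariate (-0.55). Leaving out untreated replicate 1 of ELF-153 gave 15 members with a higher and 12 with a lower change, leaving out untreated replicate 3 of UCSD-AML1 gave 16 and 9, and leaving out any of 6 other libraries gave 1 lower. RPS16 held 114, 135 and 139.6 in treated and 115, 105 and 106 in untreated UCSD-AML1, beside 101, 166 and 153 in treated and 271, 282 and 227 in untreated ELF-153. Retained-intron transcripts carried 94% of RPS16 reads at 144 h, and with coding transcripts alone the difference was -0.52 and did not pass.

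Both lines shared 6 falling members at 96 h (13.3% of the 45 in UCSD-AML1 and 42.9% of the 14 in ELF-153) and 15 at 144 h (39.5% of 38 and 55.6% of 27). RPL41 went in opposite directions at 96 h, falling in UCSD-AML1 by 0.75, a call that edgeR (-0.59), DESeq2 (-0.61), TMM scaling (-0.60) and coding transcripts alone (-0.29) each ended. Across members r between the lines was 0.60 at 96 h (84 members) and 0.33 at 144 h (83 members). Both values rest in part on RPL10L, without which r was 0.37 and 0.09.

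**Figure D3:**
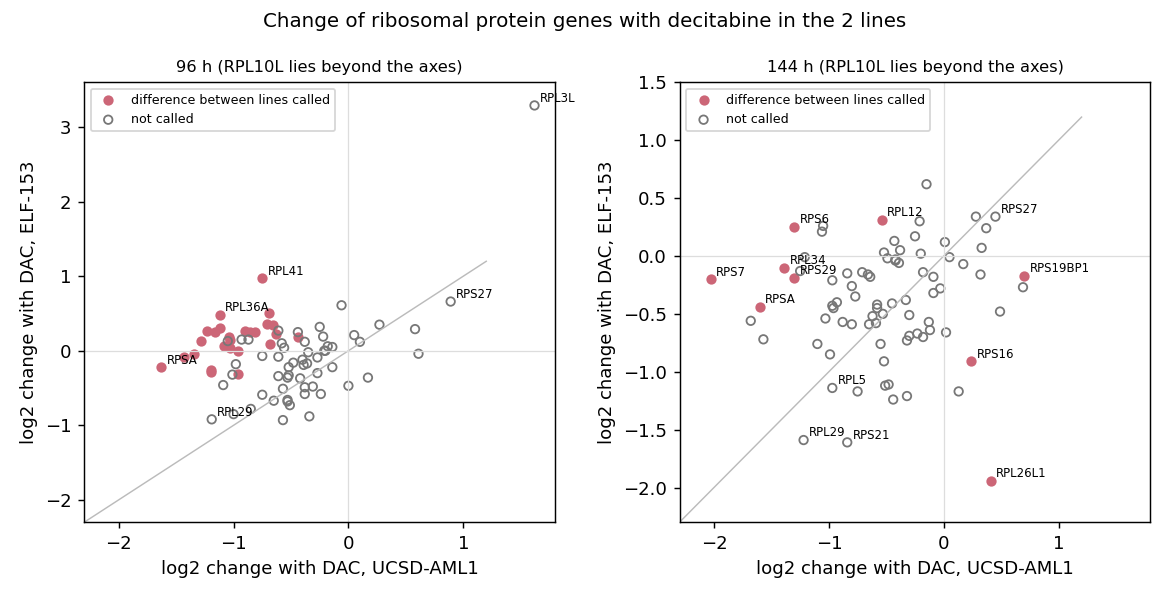
Log2 change with DAC in ELF-153 (y axis) against that in UCSD-AML1 (x axis) for each tested member at 96 h (left) and 144 h (right), with the line of equal change in grey and members whose line difference passed the test filled. At 96 h the 26 filled points in view lie above the line of equal change, and at 144 h 6 lie above and 3 below it (RPL10L lies beyond the axes in both).

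In untreated cells the members stood lower in ELF-153 than in UCSD-AML1. At 96 h 63 of 84 (75%) were lower in untreated ELF-153, against 35.2% of all genes, and 1 was higher, against 22.7%. At 144 h 32 of 83 (38.6%) were lower, against 23.1%, and 7 were higher, against 28.7%. The median differences were -1.07 and -0.35, and those of all genes -0.23 and 0.08. These comparisons share their untreated libraries with the DAC effects and with the line differences above, so they are not separate evidence. Without untreated replicate 1 of ELF-153 12 members were higher at 144 h. RPL23, a large-subunit protein that binds MDM2, held 146, 157 and 164 scaled reads in untreated ELF-153, against 1338, 1248 and 1256 in untreated UCSD-AML1 at 96 h. It held 187, 161 and 139.9 against 913, 984 and 729 at 144 h. The difference was -3.04 ± 0.15 at 96 h and -2.42 ± 0.18 at 144 h (limma adjusted p = 9.7e-10 and 2.0e-07), with the 2 lines far apart in every library. With DAC the change of RPL23 was -0.44 and -0.64 in UCSD-AML1, both passing, and 0.19 and -0.18 in ELF-153, neither passing. Its 96 h call was lost by DESeq2 (-0.31), edgeR and TMM scaling (-0.29 each) and without any 1 of 5 of the 6 libraries, and its 144 h call by edgeR and TMM scaling (-0.34 each) and without untreated replicate 2 (-0.55). RPS4X was also lower in ELF-153, at 2059, 1332 and 2026 against 7504, 7114 and 6487 at 96 h (-1.99 ± 0.19, limma adjusted p = 1.5e-06). RPS19, RPL29 and RPS21 did not pass between the untreated lines at either harvest.

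Paralogs and their parents did not always share a call. RPL10L, an intronless autosomal copy of RPL10 known for its expression in the testis, held 104, 87.2 and 82.2 scaled reads in treated ELF-153 at 96 h, against 0, 1.02 and 0 in untreated ELF-153. This was 294 reads against 1 read, a ratio of 270.5 with a 95% counting interval of 48.2 to 10718. At 144 h it held 39.3, 59.6 and 67 in treated and 0, 0 and 1.07 in untreated ELF-153, a ratio of 172 (30.5 to 6853). In UCSD-AML1 at 96 h it held 13.8, 4.5 and 1.94 in treated and 0, 0.917 and 0 in untreated libraries, a ratio of 22.6 (3.61 to 935). At 144 h, with 6 reads in treated and 0 in untreated UCSD-AML1, it was at least 1.87-fold higher, taking 3 reads over the group as the floor. Its highest libraries were thus those of treated ELF-153 at both harvests. The intervals cover counting error only. RPL10 itself held 262, 175 and 182 in treated and 234, 148 and 217 in untreated ELF-153 at 96 h and did not pass the test in any comparison. Only 18.1% of its reads at 96 h and 21.7% at 144 h lay on coding transcripts. With these alone RPL10 rose in UCSD-AML1 at 144 h (0.74).

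RPL3L, the paralog of RPL3 found in heart and skeletal muscle, held 9.47, 14 and 11.7 scaled reads in treated and 1.12, 0 and 0 in untreated ELF-153 at 96 h, a ratio of 35 (5.91 to 1417). At 144 h, where it was too low for the test, it was at least 10.2-fold higher in treated ELF-153 (30 reads against 0). In UCSD-AML1 at 96 h it held 3.93, 6.74 and 14.6 in treated and 3.15, 0.917 and 1.58 in untreated libraries. RPL3 did not pass in any comparison. With its coding transcripts alone, which held 4.82% of its reads at 96 h, it fell in UCSD-AML1 at 96 h (-1.0). RPL22L1, the paralog of RPL22, fell in UCSD-AML1 at 96 h, at 26.6, 41.6 and 32.1 in treated and 48.2, 55 and 54.4 in untreated libraries (-0.66 ± 0.25, limma adjusted p = 0.046), and edgeR, DESeq2, TMM scaling and the replicate block each ended that call. In ELF-153 RPL22L1 held 77.7, 102 and 70.4 in treated and 54.9, 63.5 and 76.5 in untreated libraries at 96 h and did not pass (0.35 ± 0.25).

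RPS27L, a p53-inducible paralog of RPS27, held 286, 396 and 385 scaled reads in treated and 235 in each untreated library of UCSD-AML1 at 96 h, and did not pass (0.58 ± 0.31, limma adjusted p = 0.15). RPL26L1, the paralog of RPL26, fell in ELF-153 at 144 h, at 5.48, 0.918 and 6.59 in treated and 11.6, 14.2 and 26.7 in untreated libraries (-1.94 ± 0.57, limma adjusted p = 0.016). It did not pass there at 96 h (0.13 ± 0.40). The 144 h call was lost without treated replicate 2 or untreated replicate 3 (-1.61 to -1.31) and with the mitochondrial covariate (-0.73). In UCSD-AML1 it fell at 96 h, at 9.84, 14.6 and 27.2 in treated and 29.4, 36.7 and 36.3 in untreated libraries (-1.05 ± 0.40, limma adjusted p = 0.048), a call that 5 of the 6 libraries each ended when left out, as did 8 of the 10 other alternatives run on it. RPL36AL, an intronless copy of RPL36A, fell in UCSD-AML1 at 144 h by 0.52 ± 0.14, at 4979, 4970 and 3992 in treated and 6887, 6990 and 6042 in untreated libraries (limma adjusted p = 0.01), a call that DESeq2 (-0.28), edgeR (-0.21) and TMM scaling (-0.22) each ended. RPS19BP1 rose in UCSD-AML1 at 96 h (0.61 ± 0.20) and 144 h (0.70 ± 0.21), but with its coding transcripts alone the changes were -0.06 and 0.21, and neither passed. The read-through RPS10-NUDT3 fell in UCSD-AML1 by 1.23 and 0.59 and in ELF-153 at 144 h by 0.58, and its reads may belong in part to RPS10. None of these 3 calls held throughout: the covariate ended that in UCSD-AML1 at 96 h (-0.72), DESeq2 (-0.35), edgeR (-0.27) and TMM scaling (-0.29) that at 144 h, and DESeq2, edgeR, the covariate and the replicate block that in ELF-153.

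The gene sums mix transcript classes. At 96 h the transcript with the most reads was a coding one in 41 of the 84 members with reads and a retained-intron one in 36. At 144 h these were 44 and 33 of 85. Such a leading transcript need not hold most of a member's reads (23.7% in RPL17 at 96 h). A median of 48.2% of a member's reads lay on coding transcripts at 96 h and 50.5% at 144 h. RPSA had 64.9% of its 96 h reads on retained-intron transcripts, RPS7 78.4% and RPLP0 74.3%, while RPS6 had 98.1% on coding ones, RPL29 94.4%, RPL5 92.5%, RPL11 88.8%, RPL22 86.7% and RPS19 86.5%. Summing coding transcripts alone, the change in UCSD-AML1 at 96 h was -1.74 for RPSA, -3.01 for RPS7, -1.29 for RPL22, -1.20 for RPL29 and -1.15 for RPLP0, and each still passed. With that sum 25, 34, 13 and 32 members fell in UCSD-AML1 at 96 and 144 h and in ELF-153 at 96 and 144 h. The share of all genes that fell under that sum was not taken, so these counts have no background beside them.

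Transcripts were also tested 1 by 1. In UCSD-AML1 41 of 164 fell at 96 h (25%), against 17.2% of all coding transcripts, and 44 of 156 at 144 h (28.2%), against 22.1%, so the share at 144 h was near the background. In ELF-153 19 of 164 fell at 96 h (11.6%), near the background of 10.3%, and 45 of 156 at 144 h (28.8%), against 15.0%. Retained-intron transcripts of members fell in UCSD-AML1, with 46 of 129 at 96 h (35.7%), against 9.27% of all such transcripts, and 30 of 122 at 144 h (24.6%), against 10.1%. In ELF-153 3 of 129 fell at 96 h (2.33%), against 6.64%, and 11 of 122 at 144 h (9.02%), against 8.25%. In ELF-153 the retained-intron share was thus near or below the background. Single libraries moved several of these counts. For coding transcripts in UCSD-AML1 the 96 h count was 27 without treated replicate 1 and 24, 24 and 23 without untreated replicates 1, 2 and 3, and the 144 h count was 27 without untreated replicate 1. In ELF-153 at 96 h it was 7 and 11 without treated replicates 2 and 3, and 12 and 11 without untreated replicates 1 and 3. For retained-intron transcripts in UCSD-AML1 the 96 h count was 24 and 27 without treated replicates 1 and 2, and 27, 24 and 26 without untreated replicates 1, 2 and 3. At 144 h it was 15 without treated replicate 3, and 13 and 11 without untreated replicates 1 and 2. In ELF-153 it was 6 at 96 h without untreated replicate 2 and 7 at 144 h without untreated replicate 3.

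Summed over all members, coding reads in treated cells were 0.746 and 0.637 of untreated in UCSD-AML1 and 0.837 and 0.647 in ELF-153 at 96 and 144 h. Retained-intron reads were 0.658 and 0.732 of untreated in UCSD-AML1 and 1.00 and 0.847 in ELF-153. The share of member reads on retained introns was 21.1% in treated and 23% in untreated UCSD-AML1 at 96 h, 19.7% and 17.8% at 144 h, and in ELF-153 27.4% and 24.1% at 96 h and 27.8% and 23.3% at 144 h.

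Single transcripts show the same genes at finer grain. RPL29-206, which carried 76.7% of RPL29 reads at 96 h, held 340, 381 and 326 scaled reads in treated and 1061, 930 and 928 in untreated UCSD-AML1 at 96 h (-1.48 ± 0.17, limma adjusted p = 1.31e-05). In ELF-153 at 144 h it held 329, 370 and 388 in treated and 1095, 1218 and 1242 in untreated libraries (-1.71 ± 0.16, limma adjusted p = 2.23e-06). RPS7-201, a coding transcript, held 16.7, 27 and 27.2 in treated and 143, 267 and 191 in untreated UCSD-AML1 at 96 h (-3.01 ± 0.36, limma adjusted p = 2.2e-05). These falls were each without overlap between treated and untreated libraries. RPL22-203, a minor coding transcript, was close to 0 in treated ELF-153 at 144 h, at 0.914, 1.84 and 1.10 in treated and 29, 73.4 and 45.9 in untreated libraries (-4.39 ± 0.55, limma adjusted p = 3.33e-05). RPL22-201 alone carried 86.4% of RPL22 reads at 144 h, and all coding transcripts 87.4%. Their sum changed by -1.02 in ELF-153 at that harvest. The gene sum of RPL22 also fell there, a call lost without any 1 of 4 of the 6 libraries.

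RPL31, a large-subunit gene whose sum did not pass in any comparison, held 2 coding transcripts that moved apart in UCSD-AML1 at 96 h. RPL31-203 held 637, 759 and 599 scaled reads in treated and 299.9, 282 and 259 in untreated libraries (1.24 ± 0.19, limma adjusted p = 0.000216). RPL31-201 held 151, 100 and 139 in treated and 354, 352 and 334 in untreated libraries (-1.43 ± 0.30, limma adjusted p = 0.00229). The gene sum, 1094, 1214 and 1031 in treated and 1057, 1137 and 1017 in untreated libraries, overlapped.

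**Figure D4:**
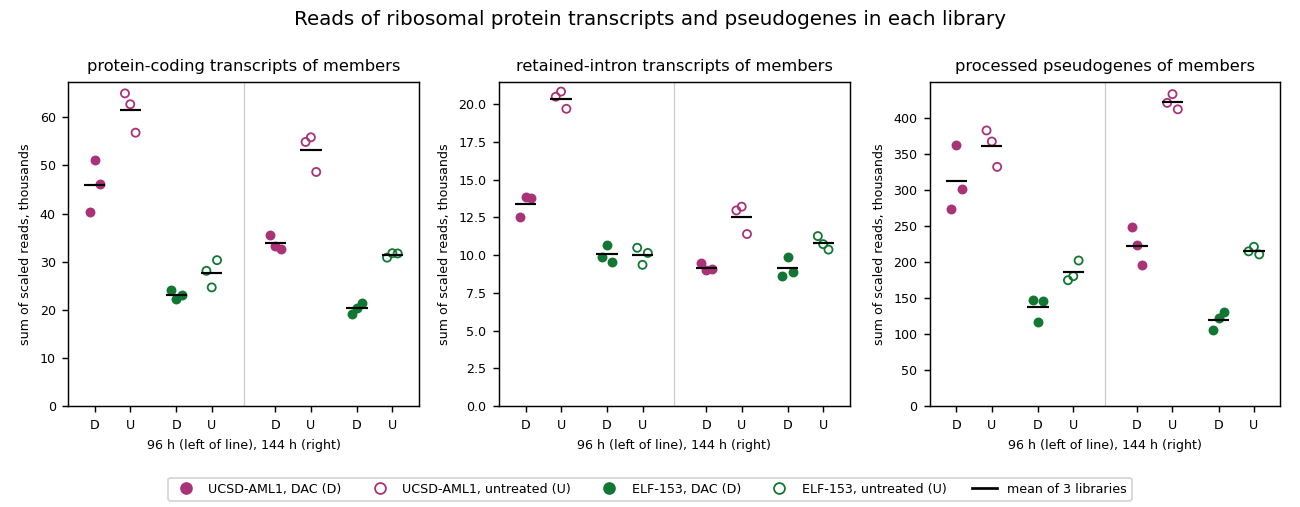
Sum of scaled reads (kiloreads) on protein-coding transcripts of members (left), on their retained-intron transcripts (middle) and on their processed pseudogenes (right) in each library, with DAC (D, filled) left of untreated (U, open) for each line and 96 h left of 144 h. Coding reads were lower with DAC in both lines at both harvests, retained-intron reads in ELF-153 at 96 h overlapped, and pseudogene reads at 144 h were 0.528 and 0.555 of untreated in UCSD-AML1 and ELF-153.

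Processed pseudogenes are reverse-transcribed copies of messenger RNAs, and ribosomal protein genes have left more of them in the human genome than most genes. The tables held 1080 of the members, with 81 of RPL23A and 65 each of RPL21 and RPSA, and 211 passed the filter at 96 h and 200 at 144 h. Each library held 3.24 to 6.37 times as many reads on them as on the members, and since the copies share sequence with their parents, reads of 1 may be counted for the other. In UCSD-AML1 at 96 h 23 of 211 fell, 10.9% against 28.4% of all processed pseudogenes, and 10 rose, against 6.9%. At 144 h 101 of 200 fell, 50.5% against 49.3%, and 7 rose, against 5.77%. In ELF-153 28 of 211 fell at 96 h, 13.3% against 13.4%, and 6 rose, against 12.1%. At 144 h 83 of 200 fell, 41.5% against 27.1%, and 9 rose, against 7.75%. The median log2 changes were -0.25 and -0.78 in UCSD-AML1 and -0.24 and -0.56 in ELF-153, and those of all processed pseudogenes -0.50, -0.91, 0.08 and -0.16. The 96 h count of falls was 14 without treated replicate 1 and 12 without untreated replicate 1 of UCSD-AML1, and 13 without treated replicate 2 and 16 without untreated replicate 3 of ELF-153, where 13 rose without untreated replicate 2. At 144 h 20 rose in ELF-153 without untreated replicate 1. Across 63 parents at 96 h and 62 at 144 h, r between the parent's change and the median change of its copies was 0.35 and 0.27 in UCSD-AML1 and 0.24 and 0.30 in ELF-153.

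Some pseudogenes moved with their parent. RPL22P1 held 2418, 2295 and 2522 scaled reads in treated and 6323, 6229 and 4610 in untreated UCSD-AML1 at 144 h (-1.23 ± 0.16, limma adjusted p = 4.7e-05), where RPL22 changed by -1.57. RPS21P4 held 601, 685 and 754 in treated and 2012, 2626 and 2489 in untreated ELF-153 at 144 h (-1.80 ± 0.16, limma adjusted p = 1.56e-06), where RPS21 changed by -1.61. RPS7P11, at -1.32, and RPS3AP26, at -1.44, fell in UCSD-AML1 at 144 h beside RPS7 (-2.03) and RPS3A (-1.68). Others rose alone. RPL17P22 held 227, 155 and 157 in treated and 12.6, 9.17 and 14.2 in untreated UCSD-AML1 at 96 h (3.80 ± 0.45, limma adjusted p = 2.2e-05), while RPL17 fell there (-0.90; -0.44 and not passing with coding transcripts alone). RPL23P2 held 124, 78.5 and 108 in treated and 6.72, 7.17 and 4.56 in untreated ELF-153 at 96 h (3.86 ± 0.38, limma adjusted p = 4.18e-06), while RPL23 did not pass (0.19). The treated libraries of both pseudogenes lay several times above all untreated ones. RPS3P6 fell in ELF-153 at 144 h (-1.15) and its parent RPS3 did not pass (0.30).

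Genes that belong to the same programme were read from lists. Of 21 elongation factor and other TOP genes, 13 fell (61.9%) and none rose in UCSD-AML1 at 96 h, and 12 fell (57.1%) and 2 rose at 144 h, against falls of 20.1% and 26.8% of all genes. In ELF-153 1 fell (4.76%) and 4 rose at 96 h, and 4 fell (19%) and 1 rose at 144 h, where the falls were below and near those of all genes (12.9% and 18.2%). NAP1L1, a histone chaperone, fell in UCSD-AML1 by 2.19 and 2.27, RACK1, which sits on the small subunit, by 0.74 and 0.81, and HNRNPA1 by 1.08 and 1.04. EEF2, the translocase of elongation, fell in ELF-153 at 144 h by 0.94. Of 11 hosts of small nucleolar RNAs with TOP starts, 7 and 8 fell in UCSD-AML1 at 96 and 144 h (63.6% and 72.7%) and none rose, with SNHG1 at -2.63 and -2.48. In ELF-153 3 fell and 3 rose at 96 h, and 3 fell and none rose at 144 h, so 27.3% fell at each harvest.

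Of 22 regulators of ribosomal protein supply 5 rose and 4 fell in UCSD-AML1 at each harvest, and 2 rose in ELF-153 at each harvest with 3 falling at 96 h and 4 at 144 h. In UCSD-AML1 22.7% rose and 18.2% fell at each harvest, near or below the shares of all genes, and in ELF-153 9.09% rose at each and 13.6% and 18.2% fell, again no more than near those shares. EIF4EBP1, a target of mTOR that holds back cap-dependent translation, fell in all 4 comparisons (-1.65 and -2.27 in UCSD-AML1, -1.63 and -2.13 in ELF-153). MAX, the partner of MYC, rose in all 4 (0.96, 0.99, 1.27 and 1.41 in the same order). LARP1B, a relative of the TOP-binding LARP1, changed by -2.97 and -2.93 in UCSD-AML1, both calls passing. LARP1 itself fell in ELF-153 at 96 h (-0.91) and did not pass there at 144 h (-0.69). MTOR fell in ELF-153 at 144 h (-0.45) and did not pass there at 96 h (-0.3). MYC fell in ELF-153 at 144 h by 1.22. MYCN fell in ELF-153 at both harvests (-0.82 and -0.83) and rose in UCSD-AML1 at 144 h (1.04). Of 16 chaperones and quality control factors of ribosomal proteins 5 fell at each harvest in UCSD-AML1 and 4 at each in ELF-153, with 0 and 1 rising in UCSD-AML1 and 2 and 0 in ELF-153. The falls were 31.2% of the list at each harvest in UCSD-AML1, against 20.1% and 26.8% of all genes, and 25% in ELF-153, against 12.9% and 18.2%. GRWD1, the chaperone of RPL3, fell in all 4 (-1.24, -0.77, -1.22 and -1.51), as HEATR3, an import factor for RPL5, did in UCSD-AML1 (-1.16 and -2.44).

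RNA polymerase I makes the ribosomal RNA to which the proteins bind. Of its 13 genes at 96 h and 12 at 144 h, 4 and 5 fell in UCSD-AML1 and 1 and 4 in ELF-153, while 2 and 0 rose in UCSD-AML1 and 3 at each harvest in ELF-153. The shares that fell were 30.8% and 41.7% in UCSD-AML1 and 7.69% and 33.3% in ELF-153, against 20.1%, 26.8%, 12.9% and 18.2% of all genes. CD3EAP, a polymerase I subunit, fell in all 4 comparisons (-2.71 and -1.59 in UCSD-AML1, -1.51 and -1.99 in ELF-153). RRN3, which brings polymerase I to its promoter, rose in ELF-153 (2.32 and 2.35) and in UCSD-AML1 at 96 h (0.83). Ribosomal RNA itself was removed before sequencing and was not measured.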

How the data were processed

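Each library was deposited as values per transcript in 2 tables, one per harvest. The deposited values are a signal, reads per transcript divided by one size factor per library, scaled within each table. All nonzero values were whole multiples of the value of 1 read (100%, tolerance 0.01), so whole reads were recovered. Per the submitters' processing notes FastQC, TopHat2, STAR, HTSeq and DESeq2 were used with build hg19; versions and the step each served are not given in the sources used here. Of 204940 transcripts 181859 (88.7%) matched GENCODE 29 and were summed to 52994 genes.

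Because the values are scaled, limma 3.58.1 in R 4.3.3 was the main test, in place of the count test planned for raw counts. It was fitted on log2(sum + 1) with a mean for each group, all 12 libraries of one harvest together, with trend and robust moderation and Benjamini-Hochberg adjustment, after a filter that asked for 10 scaled reads in 3 libraries or more. It was checked on simulated data. Alternatives were edgeR 4.0.16 with TMM and DESeq2 1.42.0 on recovered reads, TMM scaling, pseudocounts of 0.5 and 8, a filter of 1 read, coding transcripts alone, the mitochondrial ribosomal RNA share as a covariate, the 6 libraries of a line alone, a replicate block and each library left out. Python 3.11.15 with pandas 2.3.3, scipy 1.17.1 and numpy 2.4.6 handled the tables and matplotlib 3.10.9 the figures. Promoter sequences and motif counts are from RefSeq, GRCh38.p14. Counting intervals (95%, exact) and the floor of 3 reads over a group cover counting error only.

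The members and the gene lists were chosen with earlier results of these data known. Named genes were the 6 largest called rises and falls of each comparison, fixed members (the P stalk, RPSA, RPS6, RPS14, RPS19, RPL3, RPL5, RPL10, RPL11, RPL13A, RPL22, RPL23, RPS4X and the paralogs with their parents), up to 6 pseudogenes and 6 transcripts by adjusted p, and up to 4 genes of each other list, some left out for length or not reported here. Same-numbered treated and untreated libraries deviated together (every r above 0.1) only in UCSD-AML1 at 144 h (r = 0.133, 0.123 and 0.264), with no shared origin stated in the labels. Treated replicate 1 and untreated replicate 2 reached 0.14 there. In ELF-153 at 96 h the same-numbered values were 0.301, 0.327 and -0.037.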

Additional observations from a re-analysis of the deposited data

Results flagged for a closer look

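A test of the difference in DAC effect between ELF-153 and UCSD-AML1 passed for 27 members at 96 h, all with the higher change in ELF-153, and the largest of these differences on the log2 scale, apart from RPL10L, were 1.71 for RPL41, 1.61 for RPL36A, 1.5 for RPS10-NUDT3, 1.44 for RPL9 and 1.41 for RPLP1. At 144 h it passed for 7 members with a higher and 3 with a lower change in ELF-153. The higher ones named were RPS7 (1.83), RPS6 (1.55), RPL34 (1.29), RPSA (1.16) and RPS29 (1.1), and the lower ones RPL26L1 (-2.35), RPS16 (-1.16) and RPS19BP1 (-0.87). The difference of RPS6 also passed with coding transcripts alone, at 1.38 at 96 h and 1.57 at 144 h. With coding transcripts alone the 144 h differences of RPSA (0.34), RPS7 (1.11), RPS16 (-0.52) and RPS19BP1 (-1.0) did not pass, nor, with the mitochondrial covariate, those of RPS7 (1.16), RPL34 (0.70), RPSA (0.68), RPL26L1 (-1.23) and RPS19BP1 (-0.55). At 96 h that of RPL36A did not pass with coding transcripts alone (1.6). RPL10L is counted at both harvests (3.86 and 4.05), but it entered the test only through treated libraries, so these values are a description, and it did not pass by edgeR (3.49 and 2.65) or DESeq2 (3.39 and 3.75).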

How the results depend on the processing

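Of 172 called member results, 103 kept their call with any single library left out, 171 under either pseudocount, 163 under the replicate block, 138 by DESeq2, 137 with a filter of 1 read, 133 with the mitochondrial covariate, 128 with TMM scaling and 123 by edgeR. With coding transcripts alone 110 of 162 were kept, and 115 of 135 with the 6 libraries of a line. Among the calls that turned were RPS19BP1 in UCSD-AML1 at 96 h (-0.06) and RPS16 in ELF-153 at 96 h (0.30) with coding transcripts alone, and RPS21 in ELF-153 at 96 h (0.05) with the covariate. The cause was not tested.

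Counts of members that moved by more than 1.5 times are given in the order higher or lower, line and harvest. With coding transcripts alone, 1 rose and 25 fell in UCSD-AML1 at 96 h, and 13 had a higher line difference at 96 h. By edgeR 29 fell in UCSD-AML1 at 96 h, 6 rose and 19 fell at 144 h, and 16 had a higher line difference at 96 h. With TMM scaling 7 rose and 18 fell in UCSD-AML1 at 144 h. DESeq2, edgeR and TMM scaling each gave 3 lower line differences at 96 h, 15 at 144 h and 2 members higher between untreated lines at 96 h. The filter of 1 read gave 2 rises in UCSD-AML1 at 96 h, 1 at 144 h, 2 in ELF-153 at 144 h and 1 lower line difference at 144 h. The 6 libraries of a line gave 1 rise in UCSD-AML1 at 144 h and 2 rises and 5 falls in ELF-153 at 96 h, and a pseudocount of 8 gave 1 rise in UCSD-AML1 at 144 h. The covariate gave 3 falls in ELF-153 at 96 h, 1 lower line difference at each harvest and 4 higher at 144 h, and between untreated lines 0 higher at 96 h and 4 higher and 20 lower at 144 h. The replicate block gave 1 lower line difference at 96 h and 5 at 144 h; it left 46, 38, 14 and 24 falls in the 4 DAC comparisons.

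For pseudogenes in UCSD-AML1 at 96 h DESeq2 and the filter each gave 16 rises, the 6 libraries 56 falls and the covariate 61 falls; at 144 h the filter gave 12 rises and edgeR 62 falls. In ELF-153 at 96 h the filter gave 15 rises, the covariate 3 rises and 13 falls and the 6 libraries 17 falls, and at 144 h the filter gave 18 rises.

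Leaving out 1 library gave these ranges. In UCSD-AML1 at 96 h 2 to 4 members rose and 29 to 43 fell, and at 144 h 0 to 2 and 29 to 40. In ELF-153 at 96 h 3 to 5 rose and 7 to 15 fell, and at 144 h 1 to 2 and 18 to 27. Line differences were 17 to 30 higher and 0 to 0 lower at 96 h, and 6 to 16 and 1 to 12 at 144 h. Untreated lines gave 0 to 1 higher and 55 to 62 lower at 96 h, and 5 to 12 and 25 to 36 at 144 h. Pseudogenes gave 7 to 11 rises and 12 to 21 falls, 6 to 8 and 76 to 103, 4 to 13 and 13 to 40, and 7 to 20 and 61 to 81 in UCSD-AML1 at 96 and 144 h and ELF-153 at 96 and 144 h. In that order coding transcripts that fell were 23 to 33, 27 to 45, 7 to 26 and 30 to 47, and retained-intron transcripts 24 to 38, 11 to 35, 2 to 6 and 7 to 13.

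The depth limits the members near 0: with 1 read or none in an untreated group, the size of the difference in RPL10L and RPL3L is bounded only by counting intervals. The libraries are technical triplicates of 1 treatment of each line, so no test here speaks for independent cultures.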

Other observations

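Small nucleolar RNAs guide the modification of ribosomal RNA, and 60 of them lie inside 28 member genes. Of 17 tested at 96 h and 15 at 144 h, 8 fell at each harvest in UCSD-AML1, and 0 at 96 h and 2 at 144 h in ELF-153, with none rising in these comparisons. Over all small nucleolar RNAs tested, 30 of 139 and 31 of 125 fell in UCSD-AML1 and 11 of 139 and 11 of 125 in ELF-153. SNORA33, inside RPS12, held 21.6, 15.7 and 57.3 scaled reads in treated and 173, 124 and 126 in untreated UCSD-AML1 at 96 h (-2.32, limma adjusted p = 0.0169). At 144 h it held 4.2, 2.62 and 1.13 in treated and 139.7, 146 and 34.6 in untreated libraries (-4.72, limma adjusted p = 0.00185), and RPS12 itself did not pass (0.27 and 0.01). SNORD42B, inside RPL23A, held 7.87, 4.5 and 5.83 in treated and 30.4, 28.4 and 30.7 in untreated UCSD-AML1 at 96 h (-2.15, limma adjusted p = 0.000326). Treated and untreated libraries did not overlap for either RNA.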
